A study of Homo sapiens with 3 samples.

Results

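CC chemokines and CX3CL1 are small secreted or shed proteins that steer the movement of leukocytes, and 10 of their genes were followed here in a melanoma line grown as a monolayer and as 3D bodies. The genes were CCL2, CCL3, CCL4, CCL5, CCL7, CCL8, CCL20, CCL26, CCL28 and CX3CL1, chosen by name, and every array probe carrying one of these names was kept. This gave 13 probes of the 41000 on the array, and 10 of its 30982 gene names. RNA came from 1205Lu cells, a human melanoma line taken from a lung metastasis that WM793 cells formed as a xenograft in a mouse. The original monolayer (OM) had grown for 14 days in RPMI-1640 with 10% FCS. Melanoma bodies (MB) had grown for 14 days in hESC medium, which was DMEM F-12 with 20% Knock Out serum replacement. The new monolayer (NM) came from such bodies after 14 days in hESC medium and a further 10 days in RPMI-1640 with 10% FCS, with the remaining 3D bodies taken away before RNA was made. All 3 populations were the same cell line, with no genetic modification described between them, and whether they differed genetically was not tested. Medium and growth form changed together and cannot be told apart. Each population was measured on 1 single-colour Agilent array, and the 3 arrays lay on the same slide.

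Chemokines bind G protein-coupled receptors on leukocytes and draw the cells toward the source. CC chemokines, named for an adjacent pair of cysteines, call mainly monocytes, T cells and eosinophils, whereas CX3CL1 (fractalkine) is made as a membrane-bound protein that can hold cells in place and is released when the metalloproteases ADAM10 or ADAM17 cut it. Several of these genes, CCL2 and CCL20 among them, are known targets of NF-kB, and tumour cells, melanoma included, can make CCL2 themselves.

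With 1 array for each population there were no replicate cultures, so no test between populations was possible and every fold below describes these 3 arrays. Signals are in arbitrary units (a.u.) and are given unscaled. Folds were taken after each array was divided by its mean of GAPDH, ACTB and HSP90AA1, which put MB at 0.978 and NM at 0.877 of OM. A probe was called where the fold reached 5 and the brighter array was above 100 a.u., and a 2-fold count with the same minimum is given beside it. Of all 41000 probes, 64.7% to 71.0% were well above background by the scanner software on each array. For probes printed in 10 spots, the log2 ratio of a single spot had an SD of 0.20 to 0.22 where the dimmer signal was 20 to 100 a.u., 0.08 to 0.09 between 100 and 1000 a.u., and 0.07 above 1000 a.u. This SD is a technical one and holds no variation from culture to culture.

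The probes for the genes with the clearest signal are shown here, since each value is the brightness of 1 such oligonucleotide, and the genes with several probes allow a check within the gene. The first 30 of the 60 bases of each are given in lower case, 5′ to 3′, as the array files hold them.
CCL2 (A_23_P89431): gaaattgcttttcctcttgaaccacagttc
CCL20 (A_23_P17065): gtaaaaaagtcaagaacatgtaaaaactgt
CCL26 (A_23_P215484): agcgggctgtgatattcactaccaaaagag
CCL26 (A_24_P12573): ttctttactgaaaactccgaaacaattgtg
CX3CL1 (A_23_P37727): agtaggaagactttggaaagacttttccaa
CX3CL1 (A_24_P381901): catgccaccatggacccccagaggctgggc
CX3CL1 (A_24_P390495): acattcctgatgcttcttcagagactcctg

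By the files' coordinates (hg17), the CCL2 probe lies at chr17:29608163-29608222 on the plus strand. The CCL20 probe spans chr2:228506605-228507341 on the plus strand, more than its own 60 bases, so it joins sequence on both sides of a gap in the genome. The CCL26 probes lie on the minus strand at chr7:75043712-75045870, again across a gap, and at chr7:75043633-75043692. The CX3CL1 probes lie on the plus strand at chr16:55976366-55976425, chr16:55974197-55974256 and chr16:55975526-55975585, in the order printed. Probes of the same gene share no run longer than 7 bases, so they read separate stretches of the transcript.

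Promoter sequence was available from RefSeq (GRCh38.p14) for 6 of the 10 genes, in 9 windows of the 250 bases before a transcript start, and it is printed for CCL20 and CCL26, the genes called at 5-fold below. Both strands were searched for the kappaB consensus bound by NF-kB, for TGANTCA (AP-1) and for TTCNNNNGAA (STAT), which occur in 5.21%, 6.57% and 5.38% of all 35116 such windows. The kappaB consensus was found in the CCL20 window (chr2:227813592-227813841, plus strand), from 79 to 70 bases before the start, and is in capitals. None of the 3 motifs was found in the CCL26 window (chr7:75789747-75789996, minus strand). Of the other windows, that of CCL7 held TGANTCA from 51 to 45 bases before its start. A match of this kind describes letters and does not show binding.
CCL20 promoter: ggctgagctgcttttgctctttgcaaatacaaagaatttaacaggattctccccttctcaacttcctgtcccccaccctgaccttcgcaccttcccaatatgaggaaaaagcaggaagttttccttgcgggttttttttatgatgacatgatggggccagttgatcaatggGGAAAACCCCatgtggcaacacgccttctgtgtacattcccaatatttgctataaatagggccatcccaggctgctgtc
CCL26 promoter: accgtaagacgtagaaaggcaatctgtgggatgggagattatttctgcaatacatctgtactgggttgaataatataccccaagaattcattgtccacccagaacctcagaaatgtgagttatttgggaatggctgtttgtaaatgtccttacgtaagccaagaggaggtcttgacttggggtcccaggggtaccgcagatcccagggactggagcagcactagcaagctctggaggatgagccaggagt

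The melanoma label was checked against marker genes. Both probes of SOX10, a neural crest transcription factor, read 4215 to 9382 a.u., and S100B read 13307 to 43760 a.u., whereas the pigment enzymes TYR and TYRP1 were not well above background on any array. Of the 19 melanoma and melanocyte marker probes, 12 were well above background on all 3 arrays and 6 on none. DCT read 62.8 to 66.7 a.u. by the probe A_23_P76622. By their brightest probes SILV read 209.1 to 286.1 a.u. and MITF 423.2 to 717.6 a.u. MLANA read 31.3 a.u. in OM and 39.5 in MB and was not well above background in NM. Because leukocytes are a main source of CC chemokines, their markers were checked as well. PTPRC, the CD45 antigen of all leukocytes, was at 4.1 to 13.2 a.u. over its 2 probes and not well above background on any array, as were CD3D, LYZ and NKG7. Of the 14 leukocyte marker probes, 7 were well above background on all 3 arrays and 5 on none. Their summed signal was 5391 a.u. in OM, 2299 in MB and 5601 in NM, adding probes whose brightness is not on a common scale. Most of this sum was the CD68 probe alone, at 4716, 1727 and 4944 a.u., so the sum does not describe the markers as a group. Of 11 epithelial marker probes, 5 were well above background on all 3 arrays. Brightest was a KRT18 probe, at 14574 a.u. in OM, 11467 in MB and 5051 in NM, while CDH1 was at background. Of 6 endothelial marker probes, 1 was well above background on all 3 arrays, for VWF, at 185.3, 390.0 and 95.6 a.u. for OM, MB and NM.

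Of the 13 probes, those measured on all 3 arrays stood highest in NM. All 9 probes that were well above background on all 3 arrays read higher in NM than in OM and higher in NM than in MB, whereas MB and OM differed in both directions. These 9 probes stand for 6 genes, with 3 probes for CX3CL1 and 2 for CCL26, and probes of the same gene are not independent. Of all probes measured on both arrays, 56.0% were higher in NM than OM and 48.1% lower in MB than NM. These 2 comparisons share the NM array and are not independent.

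Against OM, no chemokine probe was called in MB at 5-fold, where 0.913% of all 40984 probes were called in either direction. At 2-fold, 1 of the 13 was called, CCL2, which was lower in MB, and 2.35% of all probes were 2-fold lower. Of the 9 probes measured on both arrays, 5 were higher and 4 lower in MB, beside 58.0% higher among all probes. The median log2 ratio of the 13 probes was -0.00, and that of all probes with a value was -0.01.

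Against NM, 3 of the 13 probes were called lower in MB at 5-fold, for CCL20 and for both probes of CCL26, where 0.844% of all 40992 probes were 5-fold lower. At 2-fold, 7 of 13 were lower in MB, those for CCL2, CCL20, CCL26 and CX3CL1, beside 5.59% of all probes. The median log2 ratio of MB over NM was -1.05 for the 13 probes and -0.10 for all probes.

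Between the monolayers, the same CCL20 and CCL26 probes made 3 of 13 called higher in NM than OM at 5-fold, where 0.366% of all 40981 probes were 5-fold higher. The 3 CX3CL1 probes brought the 2-fold count to 6 of 13, beside 2.26% of all probes. The median log2 ratio of NM over OM was 1.24 for the 13 probes and 0.16 for all probes. Over the probes that at least 1 array measured well above background, the medians over all probes were 0.10, 0.09 and 0.03 for MB over OM, MB over NM and NM over OM.

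**Figure D1:**
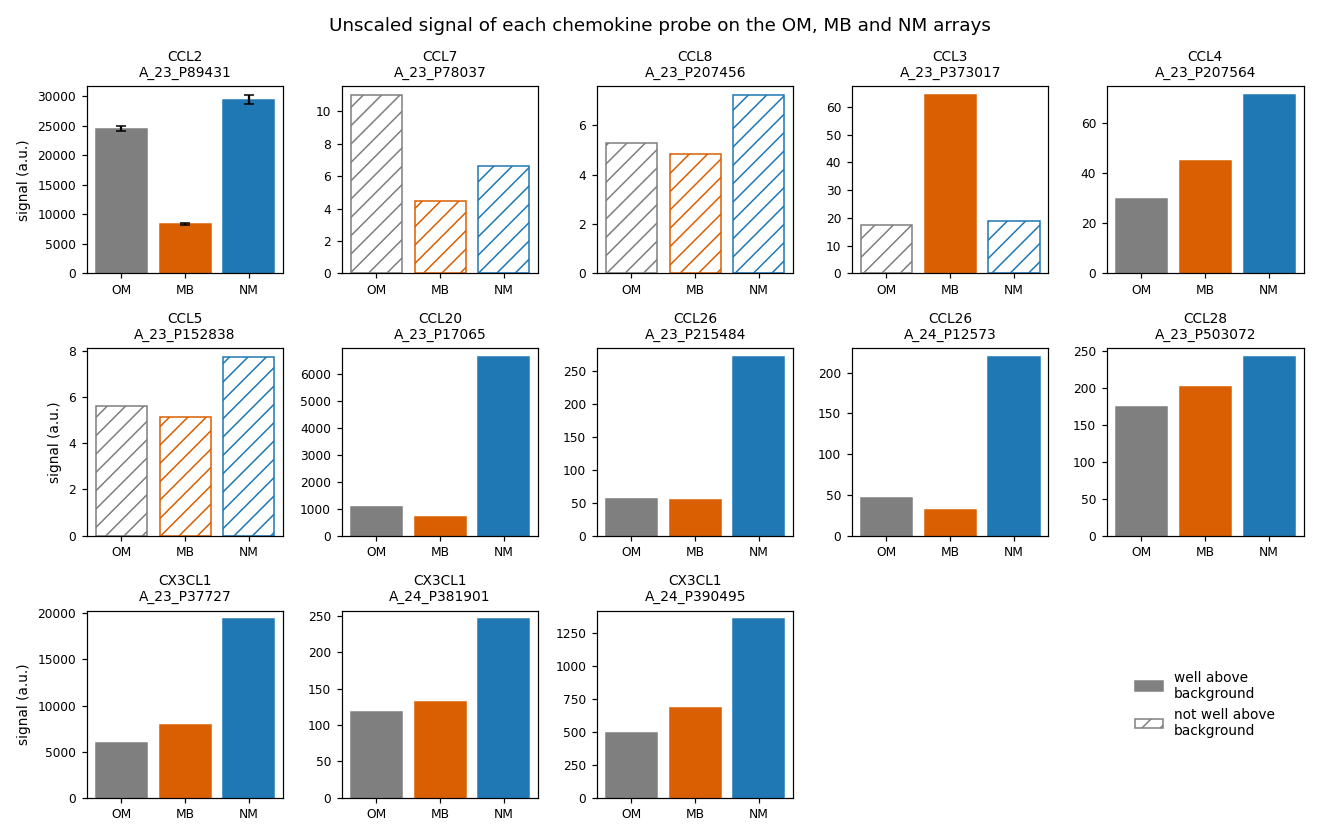
Unscaled signal in a.u. (vertical axis, from 0, with its own range in each panel) of every chemokine probe on the OM, MB and NM arrays, with filled bars where the probe was well above background, hatched bars where it was not, and the SD over 10 spots drawn for CCL2. CCL20 and CCL26 stand out on NM, CX3CL1 is highest on NM with all 3 probes, CCL2 is lowest on MB, and CCL5, CCL7 and CCL8 are hatched throughout.

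CCL2, CCL7 and CCL8 are monocyte chemoattractant proteins, ligands of the receptor CCR2 that lie in the same stretch of chromosome 17. The CCL2 probe was printed in 10 spots and read 24537 ± 462 a.u. in OM, 8406 ± 205 in MB and 29462 ± 767 in NM (SD over 10 spots). The spots ran from 23967 to 25471 a.u. on OM, from 8140 to 8753 on MB and from 28423 to 31296 on NM, so no spot of 1 array reached into the range of another. MB was thus the low array, 2.85-fold below OM and 3.91-fold below NM, and NM was 1.37-fold above OM. On the log2 scale these differences were -1.51, -1.97 and 0.45, with a technical SD of 0.02 for the mean of 10 spots.

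CCL2 missed the 5-fold call in every comparison, but its ordering of NM above OM above MB held under each of the 8 other processings, which gave a fall of 2.85 to 3.25-fold in MB against OM and a rise of 1.20 to 1.43-fold in NM over OM. CD68, a lysosomal protein that is abundant in macrophages and also made by other cells, moved in the same direction, at 4716 a.u. in OM, 1727 in MB and 4944 in NM, 2.67-fold lower on MB than on OM. In a bulk sample, fewer cells of a type and less RNA per cell cannot be told apart, and the part of CD68-positive cells in the CCL2 result was not tested. PTPRC, the pan-leukocyte marker, was at background on the same arrays. Other leukocyte markers had other orders. ITGAM, an integrin of myeloid cells, read 134.8 a.u. in OM, 194.3 in MB and 303.8 in NM and was 2.57-fold higher in NM than OM, as CCL20, CCL26 and CX3CL1 were highest in NM, and its part in those results was not tested. CD2, a T cell antigen, read 200.9 a.u. in OM and 36.5 in MB, 5.38-fold lower in MB, and was at least 6.05-fold lower in NM than OM.

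**Figure D2:**
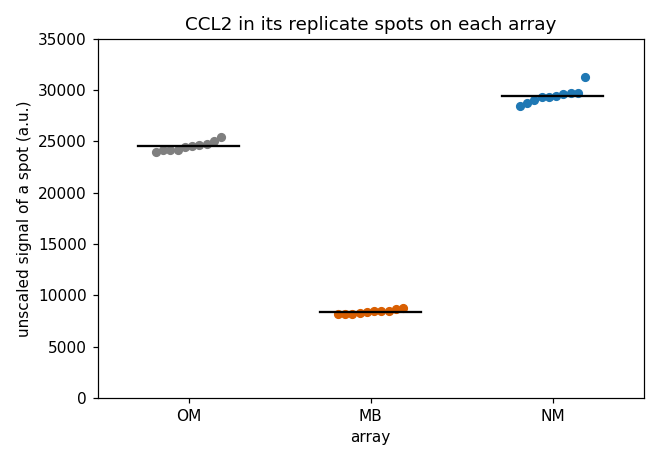
Unscaled signal in a.u. of the 10 spots of the CCL2 probe on each array, sorted within an array, with a line at the mean. The spots of MB lie between 8140 and 8753 a.u., below all spots of OM (23967 to 25471) and NM (28423 to 31296).

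CCL7 and CCL8 gave no such signal. The CCL7 probe, 14.7 kb from that of CCL2 in hg17, read 11.0, 4.5 and 6.7 a.u. for OM, MB and NM. The CCL8 probe, 64.0 kb from that of CCL2, read 5.3, 4.8 and 7.2 a.u. in the same order. Neither was well above background on any array, where the lowest signal that counted as such was 20.9 a.u. in OM, 19.4 in MB and 29.1 in NM. Of CCL2, CCL7 and CCL8, CCL2 alone was therefore measured, and no fold can be given for CCL7 or CCL8.

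CCL3, CCL4 and CCL5, the macrophage inflammatory proteins 1-alpha and 1-beta and RANTES, call T cells and monocytes. The CCL3 probe (chr17:31440004-31440062) read 17.4 a.u. in OM, 64.2 in MB and 19.0 in NM, and MB was the only array on which it was well above background. That put MB at least 3.14-fold above OM and at least 1.98-fold above NM, both under the 100 a.u. that a call required. These bounds hold for the background-subtracted signals, and with normexp correction or no background subtraction the ratio was smaller, down to 1.5-fold over OM and 1.40-fold over NM. CCL3 was the one chemokine whose highest signal was on MB. Of the 2 probes for its near-identical copy CCL3L3, A_23_P321920 was well above background on MB alone, at 31.4 a.u. against 18.7 on OM and 25.2 on NM. By this probe MB was at least 1.54-fold above OM, and no fold could be given against NM. Its 25.2 a.u. on NM lay above the lowest signal that counted on MB, 19.4 a.u., but under that of NM, 29.1 a.u. The other probe read 19.7 a.u. on MB and was not well above background. The CCL3 probe shares no run longer than 7 bases with either CCL3L3 probe, which shows only that the probes differ in sequence. Whether the CCL3 probe also binds CCL3L3 RNA was not tested.

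CCL4, whose probe lies 16.8 kb from that of CCL3, had another order. It read 29.7 a.u. in OM, 44.7 in MB and 71.2 in NM, well above background on all 3 arrays but dim. NM was 2.73-fold above OM and 1.77-fold above MB, and MB was 1.54-fold above OM, with a technical SD near 0.2 on the log2 scale at this brightness. Without background subtraction or with normexp correction the rise in NM over OM shrank, to 1.63-fold at the smallest. CCL5, 216 kb from CCL3, read 5.6, 5.1 and 7.7 a.u. and was at background throughout.

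CCL20, the ligand of CCR6 that draws memory T cells and immature dendritic cells, changed most among the 10 genes. Its probe read 1046 a.u. in OM, 698 in MB and 6612 in NM, well above background throughout. NM was the high array, 7.21-fold above OM and 10.6-fold above MB, and MB was 1.47-fold below OM. The log2 differences were 2.85 for NM over OM, -3.40 for MB over NM and -0.55 for MB over OM, with technical SDs of 0.07, 0.08 and 0.09. The monolayers, both in RPMI-1640 with FCS at harvest, thus differed for this gene. All 8 alternatives kept CCL20 past 5-fold in both comparisons with NM, at 9.48 to 11.4-fold over MB and 6.32 to 7.56-fold over OM. No alternative brought MB and OM to 2-fold, and the range was 1.43 to 1.68-fold lower in MB.

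CCL26 (eotaxin-3), a ligand of CCR3 that calls eosinophils, followed with a smaller signal and 2 probes that gave the same order. The probe A_23_P215484 read 56.1 a.u. in OM, 54.7 in MB and 270.2 in NM. The probe A_24_P12573 read 45.6 a.u. in OM, 31.9 in MB and 218.8 in NM. Both were well above background on all arrays and both were clearly brightest on NM, at 5.49-fold and 5.47-fold over OM and at 5.51-fold and 7.64-fold over MB. Between MB and OM the first probe had the same level (1.00-fold), with a log2 difference far under its technical SD of 0.22 and a sign that changed with the processing. The second was 1.40-fold lower in MB, a log2 difference of -0.48.

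The 5-fold call of CCL26 depended on how the background was handled. With normexp correction, NM was 3.14-fold and 2.99-fold above OM by the 2 probes and 3.1-fold and 3.20-fold above MB. Without background subtraction the folds were 3.51 and 3.20 over OM and 3.36 and 3.70 over MB, and without scaling between arrays both probes fell just under 5-fold over OM, at 4.82 and 4.8. NM stayed the highest array for both probes under each alternative.

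**Figure D3:**
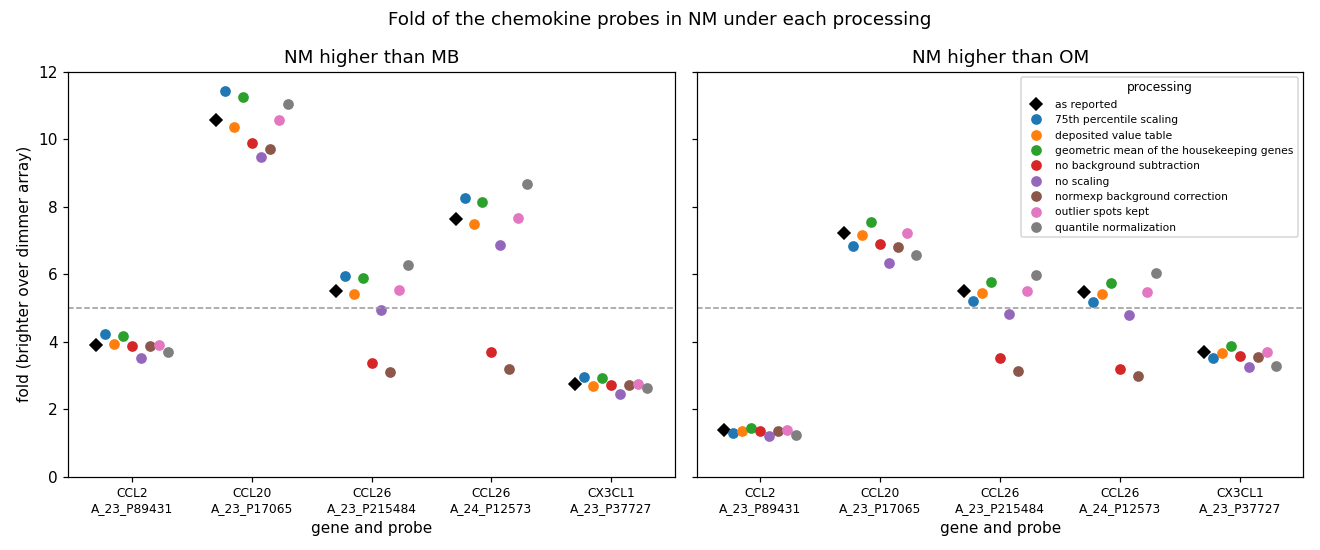
Fold by which the NM signal exceeded that of MB (left) and OM (right), on a linear axis from 0, for 5 chemokine probes, with a diamond for the reported processing, a circle for each alternative and a dashed line at 5-fold. CCL20 lies above the line at each point, while both CCL26 probes drop to between 2.99-fold and 3.70-fold with normexp correction or without background subtraction.

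CCL28, a mucosal chemokine that binds CCR10 and CCR3, moved least. Its probe (chr5:43417682-43417741) read 174.2 a.u. in OM, 201.3 in MB and 241.2 in NM. NM was 1.58-fold above OM and 1.34-fold above MB, and MB was 1.18-fold above OM, all under 2-fold. The smallest of these, a log2 difference of 0.24, was 2.7 times the technical SD of 0.09.

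CX3CL1 is the only CX3C chemokine, and its receptor CX3CR1 is carried by monocytes, natural killer cells and T cells. Its brightest probe, A_23_P37727, read 5959 a.u. in OM, 7885 in MB and 19347 in NM. A_24_P390495 read 492.6 a.u. in OM, 679.7 in MB and 1349 in NM, and A_24_P381901 read 118.1, 131.8 and 244.9 a.u. All 3 probes placed NM first, MB second and OM last, the order that CCL4 and CCL28 also had. The rise in NM over OM was 3.70-fold, 3.12-fold and 2.36-fold by these probes, and NM exceeded MB 2.73-fold, 2.21-fold and 2.07-fold. The probes thus gave the same direction with folds that spread more widely than the technical SD of 0.07 to 0.09 on the log2 scale. MB was 1.35-fold, 1.41-fold and 1.14-fold above OM, so CX3CL1, unlike CCL2, CCL20 and the CCL26 probe A_24_P12573, was not lower in the bodies. No alternative took CX3CL1 to 5-fold, with the brightest probe at 3.25 to 3.88-fold for NM over OM.

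**Figure D4:**
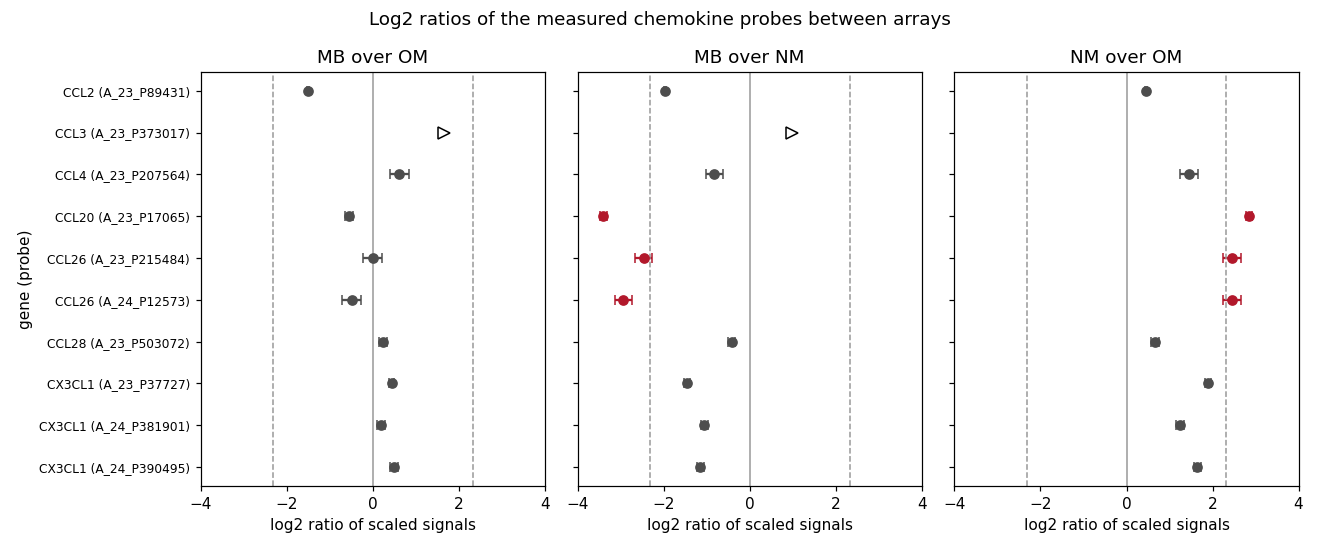
Log2 ratio of the scaled signals (horizontal axis) for each chemokine probe measured on at least 1 array, in MB over OM, MB over NM and NM over OM. Points are measured ratios with the technical SD, red where called at 5-fold, open triangles are lower bounds and dashed lines mark 5-fold. All measured points lie left of 0 for MB over NM and right of 0 for NM over OM, and the CCL20 and CCL26 points lie beyond the lines.

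The enzymes that release CX3CL1 changed little. ADAM10 read 1864 a.u. in OM, 2114 in MB and 1676 in NM, and differed by at most 1.16-fold between arrays. The 2 probes of ADAM17 differed by at most 1.43-fold, that of NM over OM. None of the 3 sheddase probes was called at 2-fold in any comparison.

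The other CC chemokine ligands of the array, 15 genes with 19 probes, gave few signals. Of their probes, 13 were not well above background on any array, 3 were on all 3 arrays, and none was called at 5-fold or 2-fold in any comparison. The 3 measured throughout were CCL21, CCL24 and CCL27. CCL24 (eotaxin-2), like CCL26 a ligand of CCR3, read 972.7 a.u. in OM, 937.4 in MB and 1173 in NM, 1.37-fold higher in NM than OM. CCL27, a skin chemokine that shares CCR10 with CCL28, ran the other way, at 772.0 a.u. in OM, 704.0 in MB and 353.4 in NM, 1.92-fold lower in NM than OM. The list's median log2 ratio, over probes most of which were at background, was -0.07 for MB over OM, 0.16 for MB over NM and 0.46 for NM over OM. For NM over OM the measured CCL21, CCL24 and CCL27 gave 0.14, 0.46 and -0.94.

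Of the 15 receptor genes on the array, 8 were well above background on at least 1 array by at least 1 probe and 7 on none. Of the 22 probes for these CC, CX3C and atypical receptors, 14 were not well above background on a single array. Among these was CCR6, the receptor of CCL20, at 4.1 to 5.8 a.u. CX3CR1 was well above background on MB alone, at 22.4 a.u., at least 1.09-fold above OM, and no fold could be given against NM. CCR10 read 281.5 a.u. in OM, 169.6 in MB and 249.4 in NM, which put MB 1.62-fold below OM.

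At 5-fold, 2 receptor probes were called higher and 1 lower in MB than OM, where 0.564% of all probes were called higher and 0.349% lower. The same 2 were higher in MB than NM, beside 1.58% of all probes, and the lower one was also called lower in NM than OM, beside 0.515%. CCRL1, the atypical receptor now named ACKR4, which takes up chemokines without signalling through G proteins, read 217.0 a.u. on MB and was not well above background on OM or NM (6.6 and 14.3 a.u.). MB was at least 10.6-fold above OM and at least 6.68-fold above NM. CCR1, a receptor of CCL3 and CCL5, read 32.2 a.u. in OM, 162.9 in MB and 8.5 in NM by the probe A_24_P148717, 5.18-fold above OM and at least 5.02-fold above NM, but with its other probe no array was well above background. CCR2, the receptor of CCL2, read 102.0 a.u. on OM by the probe A_23_P212354, at least 5.14-fold above MB and at least 3.07-fold above NM, so the call against NM rests on a signal at background, while its other 2 probes were not well above background on any array. The median log2 ratio over the receptor probes, most of them at background, was -0.09 for MB over OM, -0.72 for MB over NM and 0.64 for NM over OM.

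Genes of the NF-kB system were listed beside the chemokines, as subunits and feedback inhibitors, 10 genes with 13 probes that were all well above background on the 3 arrays. At 5-fold, 1 of the 13 was lower in MB than NM, beside 0.844% of all probes, and none was called in the other comparisons. That gene was BIRC3, an inhibitor of apoptosis and NF-kB target, which read 9601 a.u. in OM, 3007 in MB and 18325 in NM, 6.79-fold below NM and 3.12-fold below OM in MB. Its order of arrays, NM above OM above MB, was that of CCL2 and CCL20. NFKBIA, the inhibitor IkB-alpha, kept that order at 37679, 22425 and 71192 a.u. for OM, MB and NM, 3.54-fold lower in MB than NM and 2.15-fold higher in NM than OM. So did NFKB2, at 1853, 929 and 2843 a.u., and RELB, at 36339, 29194 and 54034 a.u. In MB they were 3.41-fold and 2.06-fold below NM. At 2-fold, 1 of the 13 was higher and 1 lower in MB than OM, beside 4.02% and 2.35% of all probes, and 2 were higher in NM than OM, beside 2.26%. A further 2-fold count, for MB against NM, was 4 lower and 2 higher, beside 5.59% and 8.38% of all probes. Other members had other orders. Both probes of TNFAIP3, a feedback inhibitor, were highest in MB, and A_24_P166527 read 99.1 a.u. in OM, 223.0 in MB and 140.9 in NM, 2.30-fold higher in MB than OM. NFKBIE was highest in MB at 16768 a.u., against 13870 in OM and 12500 in NM, and REL was lowest in NM at 143.9 a.u., against 303.0 in OM and 314.1 in MB. The 2 probes that were 2-fold higher in MB than NM were both for NFKBIB, and the third probe of that gene was 1.57-fold lower. The list's median log2 ratio was 0.08 for MB over OM, -0.24 for MB over NM and 0.49 for NM over OM.

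Interferon factors and targets, 8 genes with 10 probes, gave no call at 5-fold. At 2-fold the call was IRF1, a transcription factor induced by interferon-gamma, which read 1455 a.u. in OM, 1008 in MB and 3534 in NM, 3.91-fold lower in MB than NM and 2.77-fold higher in NM than OM. That made 1 of 10 probes in each of these comparisons, beside 5.59% lower and 2.26% higher among all probes. CXCL10, a chemokine induced by interferon, stayed at background on all 3 arrays. The median log2 ratio of the list was 0.40 for MB over OM, -0.07 for MB over NM and 0.68 for NM over OM.

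For the 2 genes called at 5-fold, the genes with the most similar pattern were found among 12482 genes, by the distance between their log2 ratios of MB over OM and NM over OM. This rests on 3 arrays and is a description. Nearest to CCL20 was LAMP3, at a distance of 0.16, which read 132.0 a.u. in OM, 85.4 in MB and 931.4 in NM. SLAMF8 (0.28) and AKNA (0.33) followed. Nearest to CCL26, by its brighter probe, were PRSS21 (0.10), with 25.9, 26.2 and 132.6 a.u. for OM, MB and NM, FABP6 (0.14) and ARRDC4 (0.26). Several of the signals compared were under 100 a.u., where the technical SD is near 0.2 on the log2 scale. The distances are of about that size, so the ranking is not firm. The other CCL26 probe had a log2 ratio of -0.48 for MB over OM, against -0.005 for the brighter probe.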

How the data were processed

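Total RNA of OM, MB and NM cells was labelled with Cy3 and hybridised to 1 Agilent array each. The authors deposited the intensity of each spot from Feature Extraction (9.5.3.1 in the file headers) on a linear scale, with a fitted background surface subtracted, low values replaced by a surrogate and no scaling between arrays. Control spots were left out, as were outlier spots among the others (77 to 81 an array). Spots of a probe were averaged, and each array was scaled to its average of 3 housekeeping probes (GAPDH, ACTB, HSP90AA1), each printed in 10 spots. The 5-fold and 100 a.u. limits follow the study's methods. If the scanner software did not mark the dimmer signal as well above background, the fold was bounded by the higher of the lowest signal well above background there and the probe's own. The text names every chemokine probe, members of the fixed lists, and the 3 genes nearest in pattern to each called gene. The values of 1 listed receptor are not reported here. The members and lists were chosen with earlier results of these data known. Names are those of the array, and all 10 chemokine accessions matched the same current symbol. No test was run, and the number of arrays limits precision. On simulated arrays the call was tested before use. Python 3.11.15 with pandas 2.3.3 and numpy 2.4.6, and limma 3.58.1 in R 4.3.3 (normexp, offset 50), were used.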

Additional observations from a re-analysis of the deposited data

How the results depend on the processing

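Of the 39 log2 ratios of the chemokine probes, 35 kept their sign under each of the 8 other scalings, background corrections, spot filters and sources of values, and the other 4 were CCL26 (A_23_P215484), CCL5 and CCL8 in MB against OM and CCL7 in NM against OM, of which CCL26 alone was well above background. With the threshold at 2-fold the calls numbered 1 in MB against OM, 7 in MB against NM and 6 in NM against OM, in place of 0, 3 and 3. Normexp correction and no background subtraction each left 1 call in MB against NM and 1 in NM against OM, and without scaling NM against OM kept 1. The call that was left was CCL20. Normexp correction and no background subtraction leave a constant in dim signals, such as those of CCL26 on OM and MB, and without scaling NM is not raised by its scale factor of 0.877. The other alternatives gave counts within 1.5 times of those reported, among them quantile normalization, the 75th percentile, no minimum signal and each gene by its brightest probe. Across these settings the median log2 ratio of probes well above background ran from -0.09 to 0.12 for MB over OM, from -0.03 to 0.24 for MB over NM and from -0.16 to 0.10 for NM over OM. The slide could not serve as a block because it did not differ between arrays. No paired analysis was possible because each population had 1 array. Signals near background limit the folds of CCL3 and CCL4.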

Other observations

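Some related genes gave different values by different probes. Of the 3 CCR3 probes, A_24_P367473 read 129.0 a.u. in OM, 107.3 in MB and 55.7 in NM, and the other 2 were not well above background on any array. Of the 2 CCL15 probes, A_23_P218369 was well above background on MB alone (24.5 a.u.), and A_24_P301501 read 48.0 a.u. on OM and 37.2 on MB and was not well above background on NM (19.2 a.u.). DARC, the atypical receptor now named ACKR1, which binds CCL2 and other inflammatory chemokines, was well above background on MB alone at 61.0 a.u., at least 2.98-fold above OM and at least 1.88-fold above NM.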
